A study of Rattus norvegicus with 18 samples.

Results

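The genes described here are those of the glucocorticoid and CRH stress axis in the prefrontal cortex (PFC) of rat pups at postnatal day 14 (P14). They were chosen by gene symbol from a list of 10, namely *Crh*, *Crhr1*, *Crhbp*, *Hsd11b1*, *Nr3c1*, *Nr3c2*, *Fkbp4*, *Fkbp5*, *Sgk1* and *Tsc22d3*. The 10 symbols matched 11 rows of the 32623 in each table, because *Nr3c1* stands under 2 Ensembl identifiers, and all 11 rows were among the 15703 tested. RNA was sequenced from 18 Sprague Dawley pups, 6 in each of 3 groups that differed in the oxycodone (oxy) given to the dam by oral gavage. Dams of the SAL group received the saline vehicle. PNO dams were given 15 mg/kg/day of oxy from parturition on, and their pups met the drug through the milk. Dams of the IUO group received 10 mg/kg/day for 5 days, were raised by 0.5 mg/kg/day over 10 days to 15 mg/kg/day, were mated at that dose and stayed on it to weaning, so that the pups were exposed before and after birth. The labels do not say which pups shared a dam or what sex each pup was, so p-values measure the spread between these pups.

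Corticotropin-releasing hormone (CRH), the product of *Crh*, starts the hormonal stress response from the hypothalamus and is also made by interneurons of the cortex. Its receptor *Crhr1* couples to cyclic AMP signalling, and its binding protein *Crhbp* holds CRH away from the receptor. The adrenal product of the axis in the rat, corticosterone, acts inside cells on the glucocorticoid receptor *Nr3c1* and on the mineralocorticoid receptor *Nr3c2*, which has the higher affinity. *Hsd11b1* encodes the enzyme that regenerates active corticosterone inside cells from its inert form. The cochaperones *Fkbp4* and *Fkbp5* bind the receptor complex with Hsp90, the former favouring hormone binding and transport to the nucleus and the latter opposing them. *Sgk1*, a kinase, and *Tsc22d3*, which encodes the leucine zipper protein GILZ, are target genes that glucocorticoids switch on, as is *Fkbp5* itself.

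Promoters from RefSeq (build GRCr8, 250 bases before to 50 bases after a start) matched 7 of the 10 symbols, with 13 starts in all, and *Crh*, *Nr3c2* and *Hsd11b1* had no entry. The promoters of *Fkbp4* (chr4:163397869-163398168, minus strand) and *Tsc22d3* (the most upstream of 3 starts, chrX:109066340-109066639, minus strand) are printed because both genes had a lower mean in IUO pups at the unadjusted p-value, short of the adjusted one. They read 5′ to 3′, and the capitals mark the one match to the heat shock motif.
Fkbp4: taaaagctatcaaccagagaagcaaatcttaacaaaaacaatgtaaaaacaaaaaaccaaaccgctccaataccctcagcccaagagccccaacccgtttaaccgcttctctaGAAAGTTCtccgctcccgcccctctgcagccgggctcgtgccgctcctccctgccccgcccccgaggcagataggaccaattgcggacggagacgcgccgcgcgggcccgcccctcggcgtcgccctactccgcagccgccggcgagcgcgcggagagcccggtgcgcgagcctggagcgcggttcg
Tsc22d3: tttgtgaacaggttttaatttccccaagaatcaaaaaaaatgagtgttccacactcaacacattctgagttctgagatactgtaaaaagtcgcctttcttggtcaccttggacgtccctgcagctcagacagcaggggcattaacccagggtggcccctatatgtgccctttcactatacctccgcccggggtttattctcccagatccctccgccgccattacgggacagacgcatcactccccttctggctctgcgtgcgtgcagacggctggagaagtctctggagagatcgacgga
The match in *Fkbp4*, GAAAGTTC, begins 137 bases before the start. The motif searched, GAANNTTC, reads the same on both strands and was found in 1 of the 13 promoters and in 8.59% of all 33469 promoters of this length. The letters AGAACA, the core of the binding motif of both corticosteroid receptors, were searched on both strands and were in 0 of the 13 promoters and in 20.7% of all promoters. The cyclic AMP motif TGACGTCA was in 0 of the 13 and in 1.83% of all. These are matches of letters in a short window and bear on no other part of the genes.

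Expected counts summed to between 18381819 and 26084780 per pup, and the members were counted at 34 reads (second *Nr3c1* row) to 4574 reads (*Fkbp4*) in a pup. Levels below are CPM, in which each count is divided by the TMM-scaled size of its library. Markers of cortical excitatory neurons were present in every pup, with all 10 genes tested and summed levels between 1370.3 and 2856 CPM. Libraries differed along an axis that ran through all groups. The mean transcript length per read lay between 2562 and 3140 nt in SAL, between 2576 and 2981 nt in PNO and between 2717 and 3009 nt in IUO, and the share of reads from 13 mitochondrial genes lay between 6.96% and 16.3% over the 18 pups.

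Per length of transcript, *Fkbp4* had the highest level of the members and *Nr3c2* the lowest. On the deposited TPM scale *Fkbp4* had 94.5 ± 7.25 TPM (SD, n = 18 pups) and *Tsc22d3* 50.5 ± 6.66 TPM, in this order in 18 of 18 pups. *Hsd11b1* (34.1 ± 9.72 TPM) and *Sgk1* (29.8 ± 4.73 TPM) followed, with *Hsd11b1* above *Sgk1* in 11 of 18 pups. Their order turned with the group, with 44.0 ± 6.76 against 29.6 ± 5.48 TPM in PNO and 25.1 ± 2.42 against 30.1 ± 4.75 TPM in IUO (SD, n = 6). *Nr3c1* stood at 20.6 ± 3.52 TPM, above *Crhbp* (16.02 ± 4.07 TPM) in 15 of 18 pups. The CRH receptor *Crhr1* (13.7 ± 3.60 TPM) and *Fkbp5* (13.5 ± 2.69 TPM) exchanged places from pup to pup, with *Crhr1* higher in 9 of 18. *Crh* itself had 11.02 ± 3.15 TPM. The second *Nr3c1* row (6.44 ± 3.83 TPM) and *Nr3c2* (4.34 ± 2.71 TPM) closed the order, with the former higher in 17 of 18 pups.

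**Figure D1:**
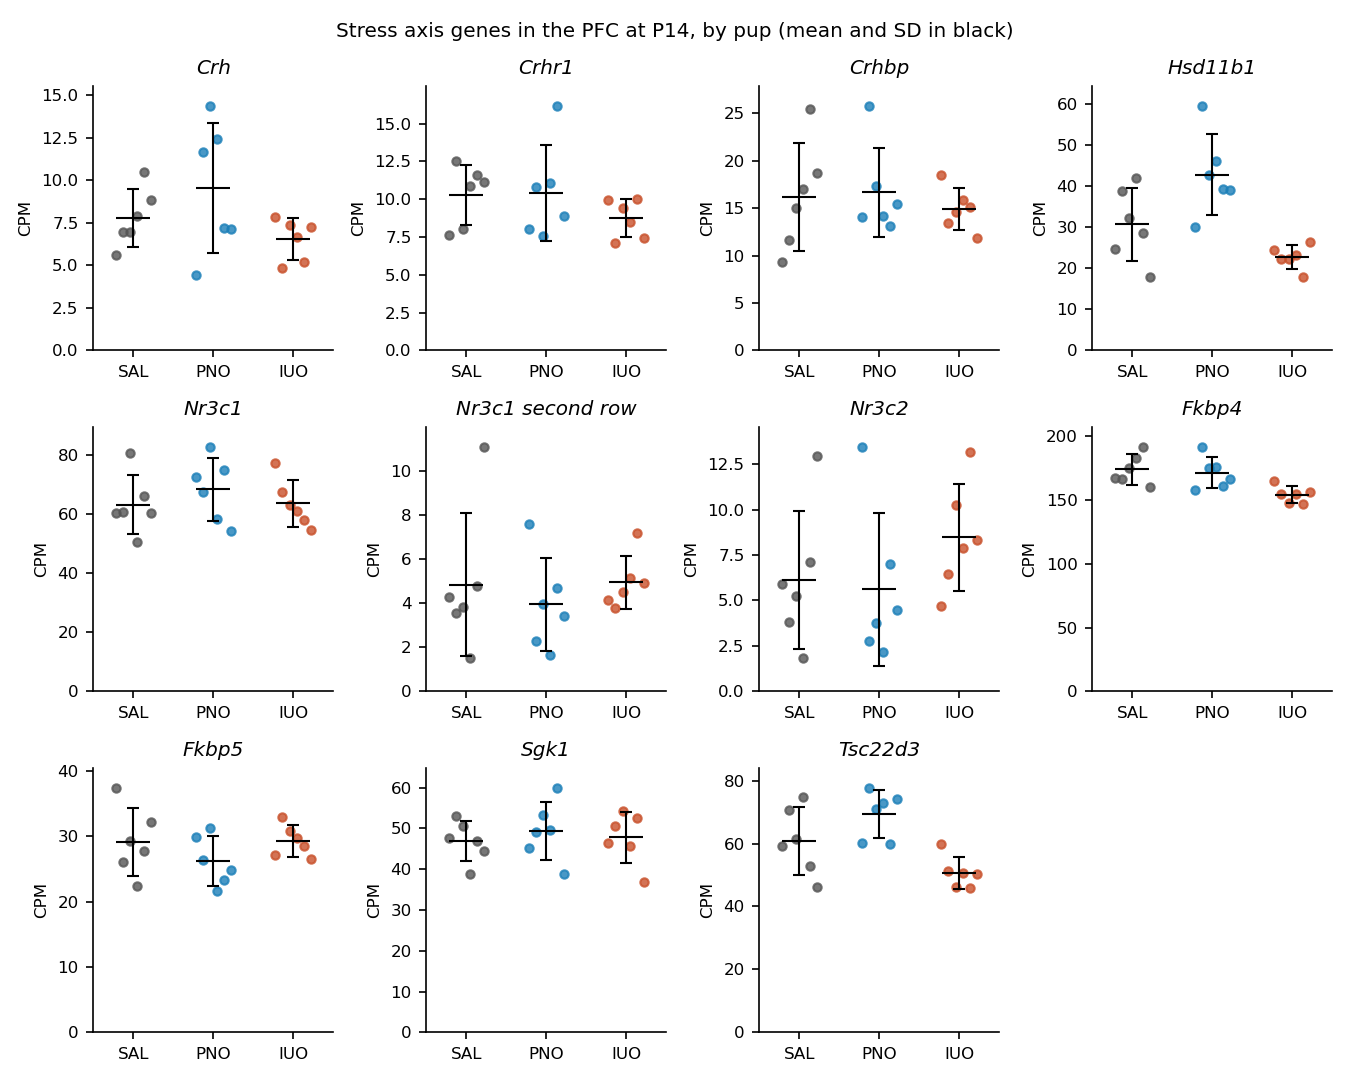
Level of each stress axis row in CPM (vertical axis, from 0) by group, where a point is 1 pup, the black line the mean and the bar the SD of 6 pups. *Hsd11b1* and *Tsc22d3* are the panels in which the PNO and IUO points do not overlap.

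Each exposed group was set against SAL, and IUO was set against PNO to compare exposure before and after birth with exposure after birth alone. The paper describes gavage of IUO dams from before mating and of PNO dams only after parturition. Drug before birth, gavage in pregnancy and the length of treatment therefore cannot be told apart between IUO and PNO. Between PNO and SAL, *Hsd11b1* was higher in PNO at an unadjusted p-value under 0.05, and no other member was. Between IUO and SAL, *Fkbp4*, *Tsc22d3* and *Hsd11b1* were lower in IUO at that level. Between IUO and PNO, the same genes and *Crh* were lower in IUO. No member passed an adjusted p-value of 0.05 in any comparison with edgeR's quasi-likelihood test on all 18 pups with TMM factors. With only the 12 pups compared, edgeR put *Hsd11b1* (adjusted p-value 0.0237) and *Tsc22d3* (0.0463) past it between IUO and PNO, where 0.469% of all genes passed. Without library size normalization edgeR put *Hsd11b1* (0.0486) past it in that comparison, where 0.121% of all genes passed.

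The counts were read against those of all 15703 genes. Between PNO and SAL, 1 of 11 rows was past the unadjusted p-value, against 4.5% of all genes, and 0 were past the adjusted one, against 0% of all genes (edgeR, smallest adjusted p-value 0.912). In PNO 7 of the 11 rows were higher and 4 lower. Their median log2 fold change was 0.04, against 0.00 over all genes, and 0 had CPM ranges that did not overlap, against 0.108% of all genes. DESeq2 and limma-voom also called 0 rows at the adjusted level, and 1 and 0 of all genes. The count past the unadjusted p-value was 0 without PNO pup 2, and 2 without SAL pup 2 or 4 (with *Tsc22d3*) or without PNO pup 1 (with *Crh*).

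Between IUO and SAL, 3 of 11 rows were past the unadjusted p-value, all lower in IUO, against 6.88% of all genes. The adjusted p-value was passed by 0 rows with edgeR, DESeq2 and limma-voom, and by 0%, 0.312% and 0.274% of all genes with these tools (smallest among the members 0.527 with edgeR). There were 5 rows higher and 6 lower, the median log2 fold change was -0.12 against -0.01 over all genes, and 0 rows had ranges apart, against 0.745% of all genes. The count past the unadjusted p-value was 1, with *Fkbp4* alone, without SAL pup 2, SAL pup 4 or IUO pup 5.

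Between IUO and PNO, 4 of 11 rows were past the unadjusted p-value, all lower in IUO, against 15.3% of all genes. The adjusted p-value was passed by 0 rows with edgeR (smallest 0.0566), against 0.0637% of all genes, by 2 with DESeq2 and by 4 with limma-voom, tools that called 2.78% and 12.9% of all genes. There were 3 rows higher and 8 lower. Their median log2 fold change was -0.15, against -0.00 over all genes. The ranges of PNO and IUO were apart for 2 rows, *Hsd11b1* and *Tsc22d3*, against 1.66% of all genes. The count past the unadjusted p-value was 2 without PNO pup 2, and *Hsd11b1* passed the adjusted p-value when SAL pup 4, SAL pup 6 or PNO pup 5 was left out. The 3 comparisons share groups with one another and are not independent.

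**Figure D2:**
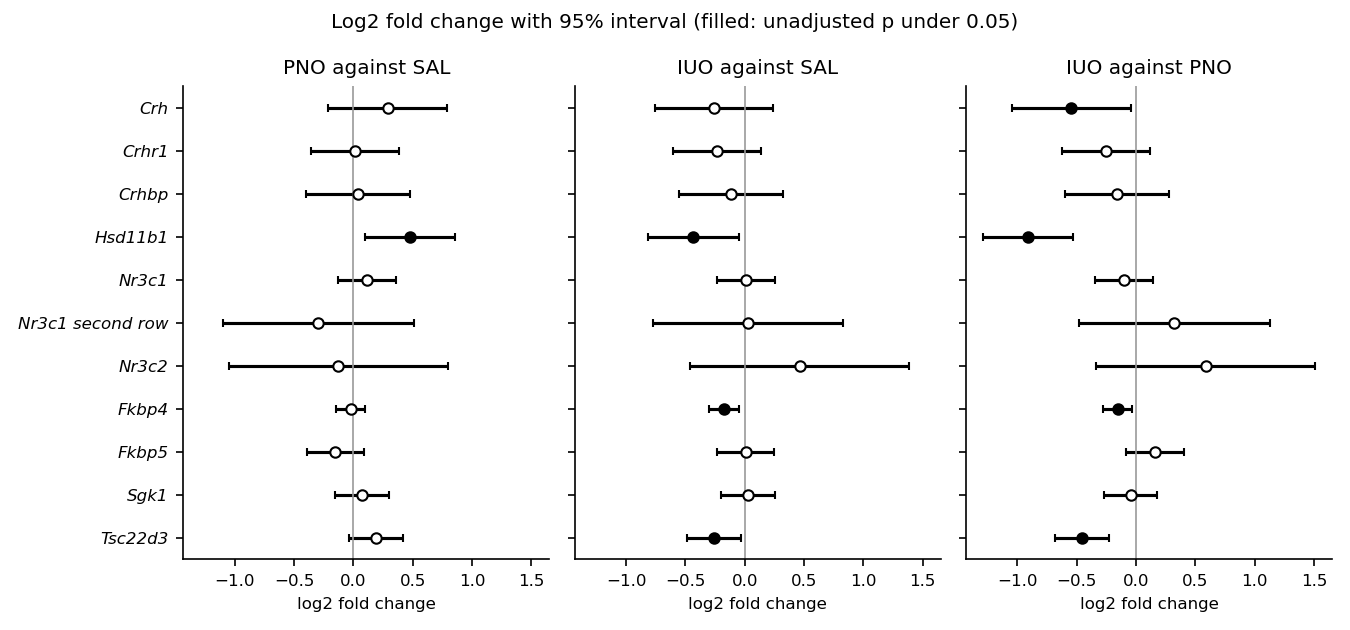
Log2 fold change of each row (horizontal axis) with its 95% interval in the 3 comparisons, edgeR, 6 pups per group, with filled points at an unadjusted p-value under 0.05. The filled points lie left of 0 in both comparisons of IUO, the farthest at -0.91 for *Hsd11b1* against PNO, and the only filled point right of 0 is *Hsd11b1* in PNO against SAL.

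*Hsd11b1* (ENSRNOG00000005861) had its highest mean level in PNO and its lowest in IUO, and the smallest p-value of the members in both comparisons with PNO. SAL pups ranged from 18.0 to 42.0 CPM with a median of 30.5, PNO pups from 30.0 to 59.7 CPM with a median of 41.1, and IUO pups from 17.9 to 26.5 CPM with a median of 22.8. Every IUO pup lay below every PNO pup, while SAL overlapped both. The means were 30.8 ± 8.94 CPM in SAL, 42.9 ± 9.84 CPM in PNO and 22.8 ± 2.85 CPM in IUO (SD, n = 6 each), so that IUO stood at 0.532 times PNO. The log2 fold change of IUO against PNO was -0.91 (SE 0.18, 95% interval -1.29 to -0.53, edgeR adjusted p-value 0.0566, unadjusted 9.37e-05). Against SAL it was 0.48 for PNO (SE 0.18, edgeR adjusted p-value 0.912) and -0.43 for IUO (SE 0.18, edgeR adjusted p-value 0.673). The adjusted p-value of IUO against PNO was 0.000653 with DESeq2, 0.00641 with limma-voom and 0.0237 with edgeR on only these 12 pups, and lay between 0.0236 and 0.166 when 1 pup was left out at a time.

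*Tsc22d3* (ENSRNOG00000056135) followed the same order of groups over a smaller range. SAL pups ranged from 46.0 to 74.7 CPM (median 60.2), PNO pups from 59.98 to 77.8 CPM (median 72.0) and IUO pups from 45.8 to 59.80 CPM (median 50.6). PNO and IUO were apart by less than 1 CPM at their nearest pups. The means were 60.8 ± 10.7 CPM in SAL, 69.4 ± 7.49 CPM in PNO and 50.7 ± 5.08 CPM in IUO (SD, n = 6 each). The log2 fold change of IUO was -0.45 against PNO (SE 0.11, edgeR adjusted p-value 0.0946) and -0.26 against SAL (SE 0.11, edgeR adjusted p-value 0.673), and that of PNO against SAL was 0.19 (SE 0.11, edgeR adjusted p-value 0.912). DESeq2 gave an adjusted p-value of 0.0108 for IUO against PNO, limma-voom 0.00670 and edgeR on only these 12 pups 0.0463. The edgeR adjusted p-value was 0.0826 with the replicate block and 0.0952 without library size normalization. It lay between 0.0524 and 0.210 when 1 pup was left out at a time.

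**Figure D3:**
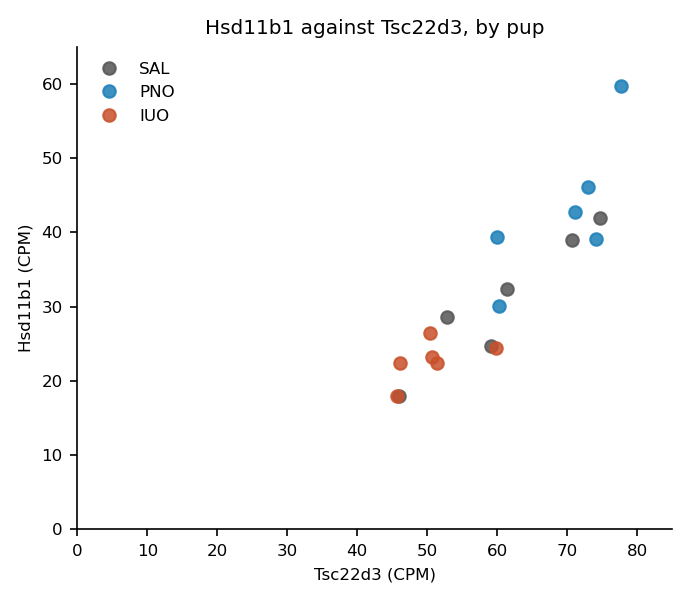
*Hsd11b1* against *Tsc22d3*, both in CPM from 0, with 1 point per pup. The IUO points sit at the lower left, up to 26.5 CPM of *Hsd11b1*, the PNO points at the upper right from 30.0 CPM, and the SAL points run from 18.0 to 42.0 CPM between and among them.

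*Fkbp4* (ENSRNOG00000006444), the cochaperone that favours receptor activity, was lower in IUO than in both other groups, by a small amount. SAL pups ranged from 159.7 to 192 CPM (median 171), PNO pups from 158 to 192 CPM (median 171) and IUO pups from 146.5 to 165 CPM (median 155). The lower end of SAL and PNO overlapped the upper end of IUO. The log2 fold change of IUO was -0.17 against SAL (SE 0.06, edgeR adjusted p-value 0.527) and -0.15 against PNO (SE 0.06, edgeR adjusted p-value 0.230), and that of PNO against SAL was -0.02. Its counterpart *Fkbp5* (ENSRNOG00000022523), with 29.2 ± 5.20 CPM in SAL, 26.2 ± 3.78 CPM in PNO and 29.3 ± 2.43 CPM in IUO, did not pass the test in any comparison with edgeR. Between IUO and PNO the log2 fold change of *Fkbp5* was 0.16 with edgeR and 0.24 with limma-voom (unadjusted p-value 0.0304). The 95% interval of the log2 fold change of *Fkbp5* was -0.39 to 0.09 for PNO against SAL and -0.23 to 0.25 for IUO against SAL.

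*Crh* (ENSRNOG00000012703), the peptide that starts the axis, varied most within PNO. SAL pups ranged from 5.62 to 10.5 CPM (median 7.44), PNO pups from 4.44 to 14.4 CPM (median 9.42) and IUO pups from 4.82 to 7.83 CPM (median 6.97). The lowest and the highest level of all 18 pups were both in PNO. The log2 fold change of IUO against PNO was -0.55 (SE 0.24, 95% interval -1.05 to -0.05, unadjusted p-value 0.0341, edgeR adjusted p-value 0.291), and the unadjusted p-value did not stay under 0.05 without PNO pup 2, 3 or 4 or IUO pup 2 or 5, with only the 12 pups compared, or with any of the covariates described below. The log2 fold change was -0.54 with the 12 pups and between -0.70 and -0.39 with 1 pup left out, and -0.64, -0.51 and -0.39 with the oligodendrocyte, striatal and transcript length covariates.

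The receptor and the binding protein of CRH gave no difference past the test. *Crhr1* (ENSRNOG00000004900) had 10.3 ± 1.98 CPM in SAL, 10.4 ± 3.17 CPM in PNO and 8.75 ± 1.26 CPM in IUO. Its log2 fold change had a 95% interval of -0.35 to 0.39 for PNO and of -0.61 to 0.13 for IUO, both against SAL. Between IUO and PNO the log2 fold change was -0.25. With the covariates described below it was -0.52 (oligodendrocyte, edgeR unadjusted p-value 0.0116) and -0.03 (striatal). *Crhbp* (ENSRNOG00000017890) had 16.2 ± 5.71, 16.7 ± 4.71 and 14.9 ± 2.25 CPM in the same order, with 1 SAL pup at 25.5 CPM and 1 PNO pup at 25.8 CPM above all others. The IUO pups had the smallest SD of the groups for *Crh*, *Crhr1* and *Crhbp*, and the difference in spread was not tested.

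The corticosteroid receptors differed in how much they varied between pups. *Nr3c1* (ENSRNOG00000014096) had 63.1 ± 9.96 CPM in SAL, 68.4 ± 10.6 CPM in PNO and 63.6 ± 8.06 CPM in IUO, with a 95% interval of the log2 fold change against SAL of -0.13 to 0.36 for PNO and -0.23 to 0.26 for IUO. *Nr3c2* (ENSRNOG00000034007) ran from 1.85 to 12.9 CPM in SAL (median 5.58), from 2.15 to 13.5 CPM in PNO (median 4.12) and from 4.72 to 13.2 CPM in IUO (median 8.11). Each group thus spanned more than the difference between any group means, and the coefficient of variation over the 18 pups was 54.7% for *Nr3c2* against 14.4% for *Nr3c1*. The log2 fold change of *Nr3c2* in IUO was 0.46 against SAL (SE 0.44, edgeR adjusted p-value 0.956) and 0.59 against PNO (SE 0.44, edgeR adjusted p-value 0.540). This value moved with the setting, to 0.81 (unadjusted p-value 0.0122) and 1.17 (adjusted p-value 0.0350) with limma-voom. With 1 pup left out at a time it lay between 0.27 and 0.82 against SAL and between 0.41 and 1.06 against PNO.

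The second *Nr3c1* row (ENSRNOG00000048800) held between 2.77% and 15.5% of the reads of both rows in a pup. Its model is 1239 nt long against 5078 nt for the main row. Its levels of 4.84 ± 3.25, 3.94 ± 2.11 and 4.94 ± 1.20 CPM in SAL, PNO and IUO did not pass the test in any comparison with edgeR. Between IUO and PNO its log2 fold change was 0.32, between 0.17 and 0.62 with 1 pup left out, and 0.78 with limma-voom (unadjusted p-value 0.0124). Reads that match both rows were divided by estimation, so that neither row is a certain measure of the gene. Across the 18 pups the second row had a Pearson r of 0.21 with the main *Nr3c1* row and of 0.94 with *Nr3c2*.

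Of the classical target genes, *Sgk1* (ENSRNOG00000011815) did not pass the test in any comparison, with 46.9 ± 5.02 CPM in SAL, 49.4 ± 7.19 CPM in PNO and 47.8 ± 6.30 CPM in IUO. The 95% interval of its log2 fold change was -0.15 to 0.30 for PNO against SAL, -0.20 to 0.25 for IUO against SAL and -0.27 to 0.18 for IUO against PNO. *Tsc22d3*, *Sgk1* and *Fkbp5* share induction by glucocorticoids as background and had log2 fold changes of -0.45, -0.05 and 0.16 between IUO and PNO.

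Across the 18 pups *Tsc22d3*, *Hsd11b1* and *Fkbp4* went up together and *Nr3c2* went the other way, while *Nr3c1* and *Sgk1* had an absolute r of at most 0.12 with those 3 genes. Of the 45 pairs of the 10 genes (main *Nr3c1* row), 10 passed a permutation test of Pearson's r after Benjamini-Hochberg adjustment over the 45, 5 positive and 5 negative, and 8 passed by Spearman's rho. An absolute r above 0.6 was found in 9 of the 45 pairs, or 20%, against 13.4% of all pairs of tested genes, so that the share was near that of the series as a whole.

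*Tsc22d3* and *Hsd11b1* were the closest pair, with r = 0.92 (permutation p-value 1e-05, the smallest that 100000 permutations can give, adjusted 0.00045) and rho = 0.92 (permutation p-value 1e-05, adjusted 0.00045). Within groups r was 0.93 in SAL, 0.78 in PNO and 0.57 in IUO, and without the 2 pups farthest from the median it was 0.89. *Nr3c2* opposed both, with r = -0.86 to *Tsc22d3* (permutation p-value 2e-05, adjusted 0.00045, rho = -0.84 with permutation p-value 2e-05) and r = -0.79 to *Hsd11b1* (permutation p-value 0.00012, adjusted 0.0018, rho = -0.76 with permutation p-value 0.00052). These were negative within every group, at -0.96, -0.86 and -0.95 with *Tsc22d3* in SAL, PNO and IUO and at -0.92, -0.85 and -0.64 with *Hsd11b1*. Without the 2 farthest pups they were -0.84 and -0.77.

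*Fkbp4* joined the same block. Its r was 0.72 with *Hsd11b1* (adjusted permutation p-value 0.00918, rho = 0.76, adjusted 0.00465), 0.69 with *Tsc22d3* (adjusted 0.0116, rho = 0.75, adjusted 0.00465) and -0.71 with *Nr3c2* (adjusted 0.00918, rho = -0.75, adjusted 0.00465). Within groups these were 0.50, 0.25 and -0.42 in SAL, 0.95, 0.84 and -0.82 in PNO and 0.70, 0.98 and -0.95 in IUO. *Crh* correlated with *Fkbp4* at 0.66 (adjusted permutation p-value 0.0214, rho = 0.61, adjusted 0.0433). *Crh* and *Crhbp* had r = 0.56 (adjusted permutation p-value 0.0565, rho = 0.58, adjusted 0.0604), with 0.97 in SAL, 0.49 in PNO and 0.27 in IUO, and the difference between groups was not tested.

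The other pairs past the test were *Crhr1* with *Fkbp5* (r = -0.61, adjusted permutation p-value 0.0404, rho = -0.57, adjusted 0.0604), *Fkbp5* with *Hsd11b1* (r = -0.61, adjusted 0.0405, rho = -0.63, adjusted 0.0414) and *Nr3c1* with *Sgk1* (r = 0.59, adjusted 0.0458, rho = 0.50, adjusted 0.105). The first fell to -0.49 without the 2 farthest pups. *Fkbp5* had r = -0.52 with *Tsc22d3* (adjusted 0.0785), the other target gene, and *Sgk1* had -0.09.

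**Figure D4:**
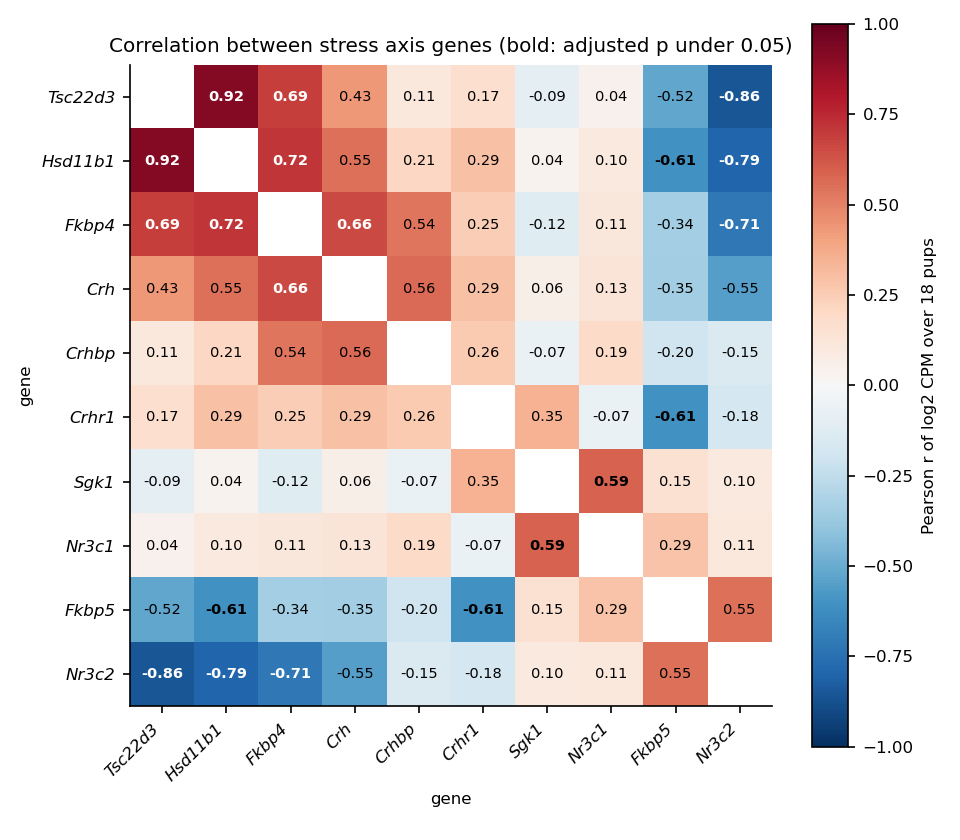
Pearson r of log2 CPM over 18 pups for each pair of the 10 genes (both axes list the genes, color from -1 to 1), in bold where the adjusted permutation p-value is under 0.05. *Tsc22d3*, *Hsd11b1* and *Fkbp4* form a block with r between 0.69 and 0.92 in the upper left, and *Nr3c2* in the last row is at -0.71 to -0.86 with all 3.

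The block ran along the axis of library composition described above. Over 18 pups the mean transcript length of a library had r = 0.89 with *Nr3c2* (permutation p-value 1e-05, the smallest possible, adjusted over 44 relations 0.00011, rho = 0.86 with permutation p-value 3e-05), 0.93 in SAL, 0.93 in PNO and 0.80 in IUO. It had r = -0.73 with *Tsc22d3* (permutation p-value 0.00041, adjusted 0.00301, rho = -0.72 with permutation p-value 0.0009) and -0.72 with *Hsd11b1* (permutation p-value 0.0007, adjusted 0.00385, rho = -0.65 with permutation p-value 0.00407). *Fkbp4* had r = -0.62 (permutation p-value 0.00632, adjusted 0.0232, rho = -0.60 with permutation p-value 0.00994), and the second *Nr3c1* row had 0.91. Without the 2 farthest pups r was 0.87 for *Nr3c2*, -0.62 for *Tsc22d3*, -0.57 for *Hsd11b1* and -0.59 for *Fkbp4*.

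The mitochondrial share had the opposite sign with each of these, at -0.85 with *Nr3c2*, 0.66 with *Tsc22d3*, 0.60 with *Hsd11b1* and 0.55 with *Fkbp4*. The pup with the longest mean transcript, SAL pup 6 at 3140 nt, had 12.9 CPM of *Nr3c2* and 18.0 CPM of *Hsd11b1*. The pup with the shortest, SAL pup 4 at 2562 nt, had 1.85 CPM of *Nr3c2* and 42.0 CPM of *Hsd11b1*. With transcript length as a covariate, which was chosen after seeing the data, the log2 fold change of IUO against PNO was -0.73 for *Hsd11b1* (SE 0.11, edgeR adjusted p-value 0.0187) and -0.35 for *Tsc22d3* (SE 0.07, edgeR adjusted p-value 0.0380). That of *Nr3c2* was 0.36 (SE 0.19, unadjusted p-value 0.0821) against PNO and 0.55 (SE 0.19, unadjusted p-value 0.00907, edgeR adjusted p-value 0.246) against SAL.

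**Figure D5:**
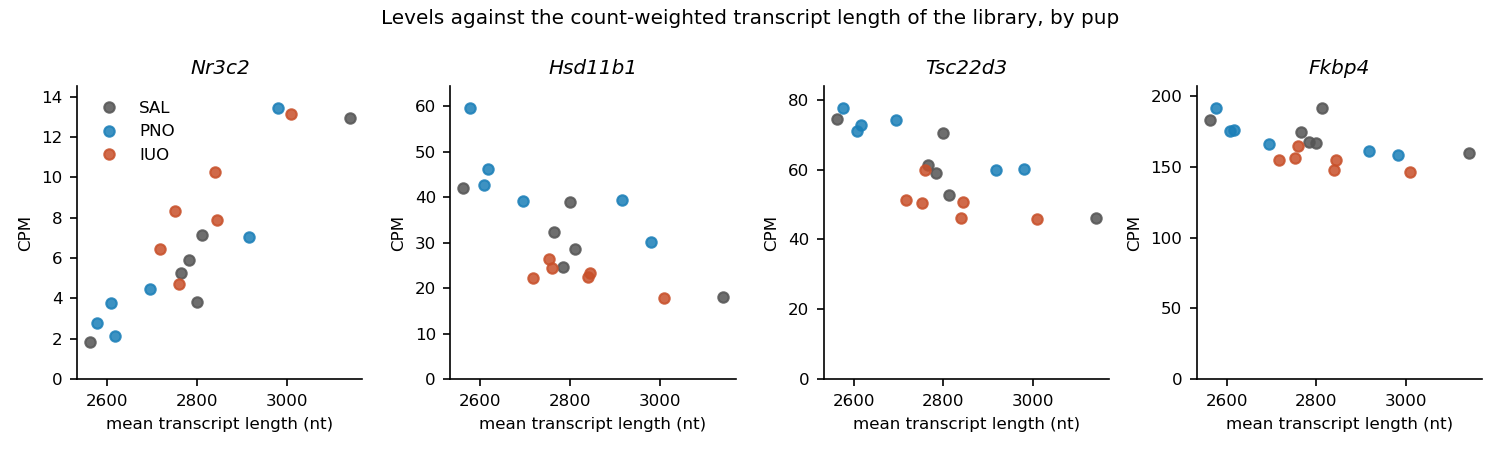
Level in CPM from 0 (vertical axis) against the count-weighted mean transcript length of the library in nt (horizontal axis) for 4 genes, 1 point per pup. *Nr3c2* climbs from 1.85 CPM at 2562 nt to 12.9 CPM at 3140 nt while the other 3 genes decline. For *Hsd11b1* and *Tsc22d3* every IUO point lies below every PNO point, whatever the length.

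Oligodendrocyte markers moved with *Tsc22d3* and *Hsd11b1*. The 8 markers summed to between 1728 and 9313 CPM in SAL, between 2928 and 14817 CPM in PNO and between 2209 and 5638 CPM in IUO, and 0 of the 8 were at 0 in all pups. Between IUO and PNO all 8 were lower in IUO and 8 were past the unadjusted p-value, against 15.3% of all genes. The median log2 fold change of the markers was -1.37 (smallest edgeR adjusted p-value 0.102), and among them were the myelin genes *Mobp* (-1.79), *Opalin* (-1.68) and *Mog* (-1.35). Their mean log2 level had r = 0.80 with *Tsc22d3* (permutation p-value 0.00017, adjusted 0.0015, rho = 0.85 with permutation p-value 2e-05) and 0.67 with *Hsd11b1* (permutation p-value 0.00287, adjusted 0.0115, rho = 0.73 with permutation p-value 0.00111). Within groups these were 0.92, 0.16 and 0.86 for *Tsc22d3* and 0.90, -0.35 and 0.46 for *Hsd11b1* in SAL, PNO and IUO, and without the 2 farthest pups 0.87 and 0.70. *Nr3c2* had r = -0.57 with the markers (permutation p-value 0.0156, adjusted 0.0491, rho = -0.62 with permutation p-value 0.00786), with -0.86, 0.12 and -0.95 within SAL, PNO and IUO and -0.84 without the 2 farthest pups. *Fkbp4* did not pass, with r = 0.48 (permutation p-value 0.0434, adjusted 0.100, rho = 0.56 with permutation p-value 0.0172).

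With the oligodendrocyte score as a covariate, chosen after seeing the data, the log2 fold change of IUO against PNO was -0.70 for *Hsd11b1* (SE 0.21, unadjusted p-value 0.00461, edgeR adjusted p-value 0.309) and -0.23 for *Tsc22d3* (SE 0.11, unadjusted p-value 0.0448, edgeR adjusted p-value 0.525). That of *Nr3c2* was -0.01, against 0.59 without the covariate, that of *Fkbp4* -0.11 (unadjusted p-value 0.133) and that of *Crhr1* -0.52 (unadjusted p-value 0.0116, edgeR adjusted p-value 0.388). In the same fit IUO against SAL gave -0.30 for *Hsd11b1* (unadjusted p-value 0.128) and -0.15 for *Tsc22d3* (0.130), which no longer passed, -0.16 for *Fkbp4* (0.0202) and -0.38 for *Crhr1* (0.0319). PNO against SAL gave 0.39 for *Hsd11b1* (unadjusted p-value 0.0426) and 0.09 for *Tsc22d3* (0.362). The score itself differs between the groups, and in bulk tissue fewer cells of a type and less RNA per cell cannot be told apart.

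Striatal neuron markers, which would come with tissue below the cortex, summed to between 202 and 1665 CPM in SAL, between 256 and 1419 CPM in PNO and between 446 and 2029.7 CPM in IUO. Between IUO and PNO all 10 markers were higher in IUO, with 0 past the unadjusted p-value (smallest edgeR adjusted p-value 0.395). Their score had r = -0.72 with *Crhr1* (permutation p-value 0.00058, adjusted 0.00365, rho = -0.78 with permutation p-value 0.00026) and 0.68 with *Fkbp5* (permutation p-value 0.00208, adjusted 0.0102, rho = 0.64 with permutation p-value 0.00537). Without the 2 farthest pups these were -0.64 and 0.54, and within SAL, PNO and IUO they were -0.93, -0.71 and -0.23 for *Crhr1* and 0.59, 0.94 and 0.45 for *Fkbp5*. With that score as a covariate the log2 fold change of *Hsd11b1* between IUO and PNO was -0.87 (SE 0.20, edgeR adjusted p-value 0.0727), and between IUO and SAL it was -0.40 (unadjusted p-value 0.0598), no longer past the test. In that fit *Nr3c1* was at -0.23 between IUO and PNO (unadjusted p-value 0.0314, edgeR adjusted p-value 0.248) and *Crhr1* at -0.03, against -0.25 without the covariate.

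The genes whose pattern over the 18 pups was most like that of a member were found by Pearson's r of log2 CPM over all tested genes, as a description. For *Hsd11b1* they were *Ddt* (0.95), *Fn3k* (0.94) and *Gabarapl1* (0.93), and *Tsc22d3* came at rank 7. For *Tsc22d3* they were *Gcsh* (0.97), *Tmem82* (0.94) and *Rmdn3* (0.94), and *Hsd11b1* came at rank 13. For *Fkbp4* they included a predicted gene (RGD1565166, 0.91) and the glycolytic enzyme *Pgam1* (0.87).

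*Nr3c2* was closest to *Gria1* (0.97), a subunit of AMPA glutamate receptors, to the kinase *Camk1d* (0.97) and to *Gda* (0.97), and the second *Nr3c1* row to *Gpr158* (0.97) and *Jmy* (0.96). The main *Nr3c1* row was closest to a predicted gene (LOC102553814, 0.86), *Lrp11* (0.85) and the GABA receptor subunit *Gabra4* (0.84), and *Sgk1* to *Id2* (0.80), the clock gene *Arntl* (0.76) and *Zfp703* (0.75). *Crh* was closest to the growth factor *Ptn* (0.85), *Preb* (0.84) and the potassium channel *Kcnk15* (0.84), *Crhr1* to *Lrrtm4* (0.85), *Bend6* (0.84) and *Ica1l* (0.84), and *Crhbp* to *Cul3* (0.83), *Cyp11b2* (0.80) and *RT1-M6-1* (0.79). *Fkbp5* was closest to *Noc3l* (0.88), *Strip2* (0.86) and a predicted gene (RGD1561277, 0.86).

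Other genes that glucocorticoids induce in many tissues were divided evenly in direction. Of 30 listed, 28 were tested, and *Plin4* and *Tat* were too low. In IUO 14 were higher and 14 lower than in PNO (median log2 fold change 0.01). With edgeR 1 higher and 2 lower were past the unadjusted p-value, against 15.3% of all genes, and 0 were past the adjusted one. Among those past the unadjusted p-value, the small GTPase *Rhob* was higher in IUO than in SAL (log2 fold change 0.19) and PNO (0.15), whereas the stress-induced *Ddit4* (-0.23 and -0.25) and the phagocytic receptor *Mertk* (-0.17 and -0.26) were lower. *Angptl4*, which encodes an inhibitor of lipoprotein lipase, was lower in IUO than in SAL (-0.32). Between IUO and SAL 14 were higher and 14 lower, with 1 higher and 3 lower past the unadjusted p-value, against 6.88% of all genes. Between PNO and SAL 15 were higher and 13 lower, with *Map3k6* (-0.54) alone past it, against 4.5% of all genes.

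Of the chaperones that mature the receptors, 16 rows of 15 genes were tested, and *Hsp90aa1*, an Hsp90 gene of most cells, was listed at 0 in 17 of 18 pups, which is not read here as a low level. In IUO 3 rows were higher and 13 lower than in PNO (median log2 fold change -0.11), with 1 higher and 3 lower past the unadjusted p-value, against 15.3% of all genes. Among those past the unadjusted p-value, the constitutive Hsp90 gene *Hsp90ab1* was higher in IUO than in PNO (0.17) and SAL (0.17). The cyclophilin *Ppid* was lower in IUO than in PNO and SAL (-0.60 and -0.59), as was the adaptor *Stip1* (-0.12 and -0.11), and *Hspa4* was lower in IUO than in PNO (-0.15). The heat shock gene *Hspa1a*, at a low level in both groups, was lower in IUO than in SAL with overlapping ranges. It had 0.554 ± 0.529 against 1.95 ± 1.14 CPM (SD, edgeR adjusted p-value 0.666). Between IUO and SAL 4 rows were higher and 12 lower, and 1 higher and 3 lower were past the unadjusted p-value, against 6.88% of all genes. The ranges of *Stip1* (edgeR adjusted p-value 0.673) did not overlap there, against 0.745% of all genes with ranges apart. Between PNO and SAL 12 were higher, 4 lower and 0 past the unadjusted p-value (edgeR, smallest adjusted p-value 0.912).

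Of 12 receptor coregulators, 11 were higher in IUO than in PNO and 1 was lower (median log2 fold change 0.20). Only the arginine methyltransferase *Carm1* (0.24, edgeR adjusted p-value 0.144) was past the unadjusted p-value, against 15.3% of all genes. *Carm1* was also the only one past it between IUO and SAL (0.15, edgeR adjusted p-value 0.713), against 6.88% of all genes, where 8 were higher and 4 lower. Between PNO and SAL 3 were higher, 9 lower and 0 past it. Of 13 genes of steroid supply, 7 were tested, *Cyp21a1*, *Hsd11b2*, *Serpina6* and *Srd5a2* were too low, and *Abcb1b* and *Cyp11b1* matched no row by symbol. The opposing enzyme of *Hsd11b1*, *Hsd11b2*, was thus among the genes too low to test. The first enzyme of steroid synthesis, *Cyp11a1*, was lower in IUO than in PNO (0.770 against 1.58 CPM, log2 fold change -1.02, edgeR adjusted p-value 0.263), and no other comparison of this list passed the unadjusted p-value.

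Of 13 genes of the CRH family and the pituitary axis, 7 were tested, and the CRH-like peptides *Ucn*, *Ucn2* and *Ucn3*, the hormone gene *Oxt* and the receptors *Avpr1b* and *Mc2r* were below the filter on counts, *Oxt* with 970 reads in its highest pup and 0 in 3 pups. Of the 7, 5 were higher and 2 lower between PNO and SAL, 4 higher and 3 lower between IUO and SAL, and 4 higher and 3 lower between IUO and PNO. In each comparison 0 were past the unadjusted p-value (edgeR, smallest adjusted p-value 0.421).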

How the data were processed

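RNA-seq of the PFC of 18 pups at P14 was analysed, 6 per group (SAL, PNO and IUO, from the sample titles). For each pup the authors deposited expected counts per gene, in which reads matching several genes are divided by estimation, and TPM values, which the authors scaled to transcript length and library. FPKM values were not used. The aligner, the counter and the genome build are not given in the sources used here. Rounded expected counts entered edgeR's quasi-likelihood test (edgeR 4.0.16, R 4.3.3, TMM, filterByExpr by group, 1 model of 3 groups, two-sided, 15 residual degrees of freedom), with Benjamini-Hochberg adjustment over 15703 genes and a threshold of 0.05. Standard errors were taken from the fold change and the F statistic. Log2 CPM used a prior count of 2. Correlations used two-sided permutation tests with 100000 resamples (scipy 1.17.1). A library's mean transcript length is that of its genes weighted by counts. TPM served only for the order of levels.

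Totals per pup lay between 18381819 and 26084780. The edgeR test and the permutation test were tested on simulated data, in which the libraries shared no axis of composition. The pups of different groups share replicate numbers, which the sources do not tie to a dam or day. The deviations of same-numbered pups had mean correlations of 0.232 (PNO and SAL), -0.027 (IUO and SAL) and 0.063 (IUO and PNO), so the numbers were not taken as pairs. The members and the gene lists were chosen with earlier results of these data known. Named in the text are every member, at most 4 genes per list and comparison with the smallest unadjusted p-values under 0.05, and the 3 genes most correlated with each member; the results of some of these genes are not reported here. Lists covered glucocorticoid-induced genes, receptor chaperones, receptor coregulators, steroid supply, the CRH family, immediate-early genes and markers of cortical excitatory neurons, interneurons, striatal neurons, astrocytes, oligodendrocytes, microglia, endothelial cells, meningeal fibroblasts, choroid plexus and red blood cells. The alternatives were DESeq2 1.42.0, limma 3.58.1 (voom with quality weights), RLE size factors, no normalization of library size, no filter on low counts, only the 12 pups compared, a replicate block and each pup left out in turn, and, chosen after seeing the data, 3 covariates (transcript length, oligodendrocyte markers and striatal markers). Tables used pandas 2.3.3 and numpy 2.4.6, and plots matplotlib 3.10.9.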

Additional observations from a re-analysis of the deposited data

How the results depend on the processing

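The number of members past the adjusted p-value between IUO and PNO was 0 with edgeR, 1 without library size normalization (*Hsd11b1*), 2 with DESeq2, with only the 12 pups compared and with the transcript length covariate (*Hsd11b1* and *Tsc22d3* each time), 4 with limma-voom (with *Fkbp4* and *Nr3c2*), and 0 to 1 with 1 pup left out. Past the unadjusted p-value there were 7 with limma-voom (with *Fkbp5*, *Nr3c2* and the second *Nr3c1* row), which passed 34.0% of all genes there, and 2 to 5 with 1 pup left out, against 1 to 3 for IUO against SAL and 0 to 2 for PNO against SAL. Over all genes the adjusted p-value between IUO and PNO was passed by 10 with edgeR, 19 without normalization, 436 with DESeq2, 2028 with limma-voom, 72 with the 12 pups, 132 with the transcript length covariate, 26 with the striatal covariate, 6 with the replicate block and 2 with the oligodendrocyte covariate. With the replicate block, the log2 fold change of *Hsd11b1* between IUO and PNO was -0.88 (edgeR adjusted p-value 0.0596), 0 members passed the adjusted p-value in any comparison, and *Crh* (-0.49 between IUO and PNO) was no longer past the unadjusted one. The number of correlated pairs was 6 without normalization, 10 with a prior count of 0.5 and 7 to 12 with 1 pup left out. The cause of these differences was not tested.

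Some members that were not past the unadjusted p-value with edgeR changed sign, among them *Nr3c2* and the second *Nr3c1* row, which limma-voom put past it between IUO and PNO. For PNO against SAL these were *Nr3c1* (-0.01) and *Sgk1* (-0.02) with limma-voom, *Crhr1* (-0.02) and *Crhbp* (-0.00) without normalization, *Crhr1* with the replicate block (-0.01) and the striatal covariate (-0.01), the second *Nr3c1* row (0.11 and 0.15) and *Nr3c2* (0.20 and 0.32) with the transcript length and oligodendrocyte covariates. For IUO against SAL they were *Nr3c1* (-0.06), *Sgk1* (-0.06) and *Crhbp* (0.10) with limma-voom, *Fkbp5* without normalization (-0.01) and without the filter (-0.00), *Nr3c1* (-0.10) and *Fkbp5* (-0.09) with the striatal covariate, and *Sgk1* (-0.01) and the second *Nr3c1* row (-0.09) with the oligodendrocyte covariate. For IUO against PNO they were the second *Nr3c1* row (-0.24) and *Nr3c2* (-0.01) with the oligodendrocyte covariate. *Hsd11b1* and *Tsc22d3* kept their direction in all 3 comparisons under every alternative run. Leaving out 1 pup, the log2 fold change of IUO against PNO lay between -1.0 and -0.79 for *Hsd11b1* and between -0.50 and -0.42 for *Tsc22d3*. Leaving out 1 pup also turned the sign of some changes, which for PNO against SAL lay between -0.60 and 0.13 for the second *Nr3c1* row, -0.61 and 0.23 for *Nr3c2*, -0.15 and 0.09 for *Crhr1*, -0.13 and 0.22 for *Crhbp* and -0.06 and 0.01 for *Fkbp4*. For IUO against SAL they lay between -0.05 and 0.09 for *Nr3c1*, -0.16 and 0.46 for its second row, -0.24 and 0.06 for *Crhbp*, -0.06 and 0.08 for *Fkbp5* and -0.02 and 0.09 for *Sgk1*, and for IUO against PNO between -0.23 and 0.01 for *Crhbp* and -0.11 and 0.02 for *Sgk1*. Depth limits the second *Nr3c1* row most, with 34 reads in its lowest pup.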

Other observations

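Among markers of other cells, the interneuron gene *Pvalb* was lower in IUO (4.43 CPM) than in PNO (22.4 CPM, log2 fold change -2.34, edgeR adjusted p-value 0.0356) and SAL (13.0 CPM, -1.55, edgeR adjusted p-value 0.343). It was the only one of the 12 interneuron markers past the adjusted p-value, and 6 of them were higher and 6 lower in IUO than in PNO (median log2 fold change 0.06). *Dlx1*, a transcription factor of interneurons and of striatal neurons, was lower in PNO than in SAL (-1.07) and higher in IUO than in PNO (0.95), both short of the adjusted p-value. The microglial gene *Tmem119* stood at 5.01 CPM in IUO against 12.5 CPM in PNO (-1.32, edgeR adjusted p-value 0.0524) and 12.8 CPM in SAL (-1.34, edgeR adjusted p-value 0.0997), with ranges apart in both comparisons. The other 6 microglial markers were not past the unadjusted p-value in these comparisons, and *P2ry12* was lower in PNO than in SAL (-0.37). Of the 7 markers, 4 were higher and 3 lower in each of the 3 comparisons, with a median log2 fold change of 0.02 for IUO and 0.00 for PNO, both against SAL, and of 0.01 between the exposed groups.

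Of 8 astrocyte markers, 4 were lower in IUO than in PNO at the unadjusted p-value, namely *S100b* (-0.57), *Aldoc* (-0.37), *Gfap* (-0.36) and *Aqp4* (-0.29), against 15.3% of all genes, and 0 between either exposed group and SAL. In all, 2 of the 8 were higher and 6 lower in IUO than in PNO (median -0.25). Of 10 markers of cortical excitatory neurons, *Bcl11b* (1.00) and *Foxp2* (0.78), genes that striatal projection neurons also express, were higher in IUO than in PNO at the unadjusted p-value, where 8 of the 10 were higher and 2 lower. All 10 striatal markers were higher there as well (median log2 fold change 0.84). Red blood cell markers were higher in IUO than in SAL for 3 of 4 rows at the unadjusted p-value, against 6.88% of all genes, namely *Alas2* (1.31), *Hba-a2* (1.29) and *Hbb* (0.99). The summed levels of these rows lay between 477 and 2534 CPM in SAL, between 351 and 2188 CPM in PNO and between 1096 and 7461 CPM in IUO. Against PNO, *Alas2* (1.26) and *Hba-a2* (1.25) were past the unadjusted p-value, as were 15.3% of all genes. Of the endothelial markers *Kdr* was lower in PNO than in SAL at the unadjusted p-value (-0.25, edgeR adjusted p-value 0.912), where 2 of the 7 were higher and 5 lower, and of the meningeal markers *Dcn* was lower in IUO than in PNO (-0.78), where 4 of the 7 were higher and 3 lower (median 0.21). In each comparison 0 of the 8 choroid plexus markers and 0 of the 9 immediate-early genes were past the unadjusted p-value (smallest edgeR adjusted p-values 0.357 and 0.415). The summed choroid plexus markers ranged from 6.58 to 547 CPM in SAL, from 6.92 to 979 CPM in PNO and from 4.77 to 257 CPM in IUO.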
